A study of Mus musculus with 6 samples.

Results

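The genes described here encode the mitogen-activated protein (MAP) kinase cascade and the dual-specificity phosphatases that switch it off. They were chosen by name as the genes whose symbol is Mapk, Map2k, Map3k, Map4k or Dusp followed by a number and that have an array row naming no other gene. Of the 14860 genes measured in this way, 55 were members. They comprised 3 MAP4K, 14 MAP3K, 6 MAP2K, 11 MAPK, 9 typical MAPK phosphatases and 12 atypical dual-specificity phosphatases. The RefSeq gene table lists 67 such genes, and the other 12 were not analysed here, among them Dusp5, Map2k7, Map3k10 and Map4k3.

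The samples were 3T3-L1 adipocytes, fat cells derived from a mouse pre-adipocyte line by 7 days in an adipogenic cocktail. LCM samples were 3 cultures held for 24 hours in leukemia cell conditioned media, and control samples were 3 cultures held in regular media, each on its own Affymetrix array. The labels attribute the LCM to mouse 8093 acute lymphoblastic leukemia cells that grew for 48 hours in RPMI1640 with 10% FBS, IL-3 and beta-mercaptoethanol, whereas the methods name the human line BV173. The labels give RPMI1640 with 10% FBS as the medium in which adipocytes were kept, whereas the methods give high-glucose DMEM with 10% FBS for 3T3-L1 cells, and neither says which of them the regular media of the control arm was. The leukemia cell products, the additives and the base medium cannot be told apart as sources of a difference. Values are log2 expression values made by the authors with RMA, which gives no reads or depth, and the number of arrays limits the precision.

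MAP kinase signalling passes a signal down tiers of kinases. A MAP4K or a small GTPase activates a MAP3K, which phosphorylates a MAP2K, which in turn phosphorylates a MAPK on a threonine and a tyrosine. The final kinases are ERK, which answers mainly to growth factors, JNK and p38, which answer mainly to stress and cytokines, and ERK5. Typical MAPK phosphatases remove both phosphates from the MAPK, and several of them are themselves transcribed in answer to the pathway they restrain. In fat cells, insulin and inflammatory cytokines both signal through these kinases. The arrays measured RNA, not phosphorylation, so they carry no direct reading of pathway activity.

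Of the 55 members, 4 rose and 3 fell in LCM at an adjusted p under 0.05 (limma with Benjamini-Hochberg adjustment over all genes, n = 3 arrays per group). Over all genes 2.29% rose, 1.97% fell and 4.26% passed in either direction, against 12.7% of the members. The members that rose were Map2k1, Map3k1, Map3k8 and Dusp12, and those that fell were Dusp4, Dusp1 and Mapk6. The 48 others did not pass and had log2 fold changes between -0.58 and 0.34. The members had a median log2 fold change of -0.05, beside -0.03 over all genes, so that the members as a whole were centred close to the array as a whole. At an unadjusted p under 0.05, 8 members were higher (14.5%, against 9.25% of all genes) and 5 lower (9.09%, against 10.3%). LCM and control values did not overlap for 8 members above (14.5%, against 12.8% of all genes) and 7 below (12.7%, against 14.7%), shares near the background. The plot of all members by tier shows that the changes that passed were spread over the MAP3K, MAP2K, MAPK and phosphatase tiers.

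**Figure D1:**
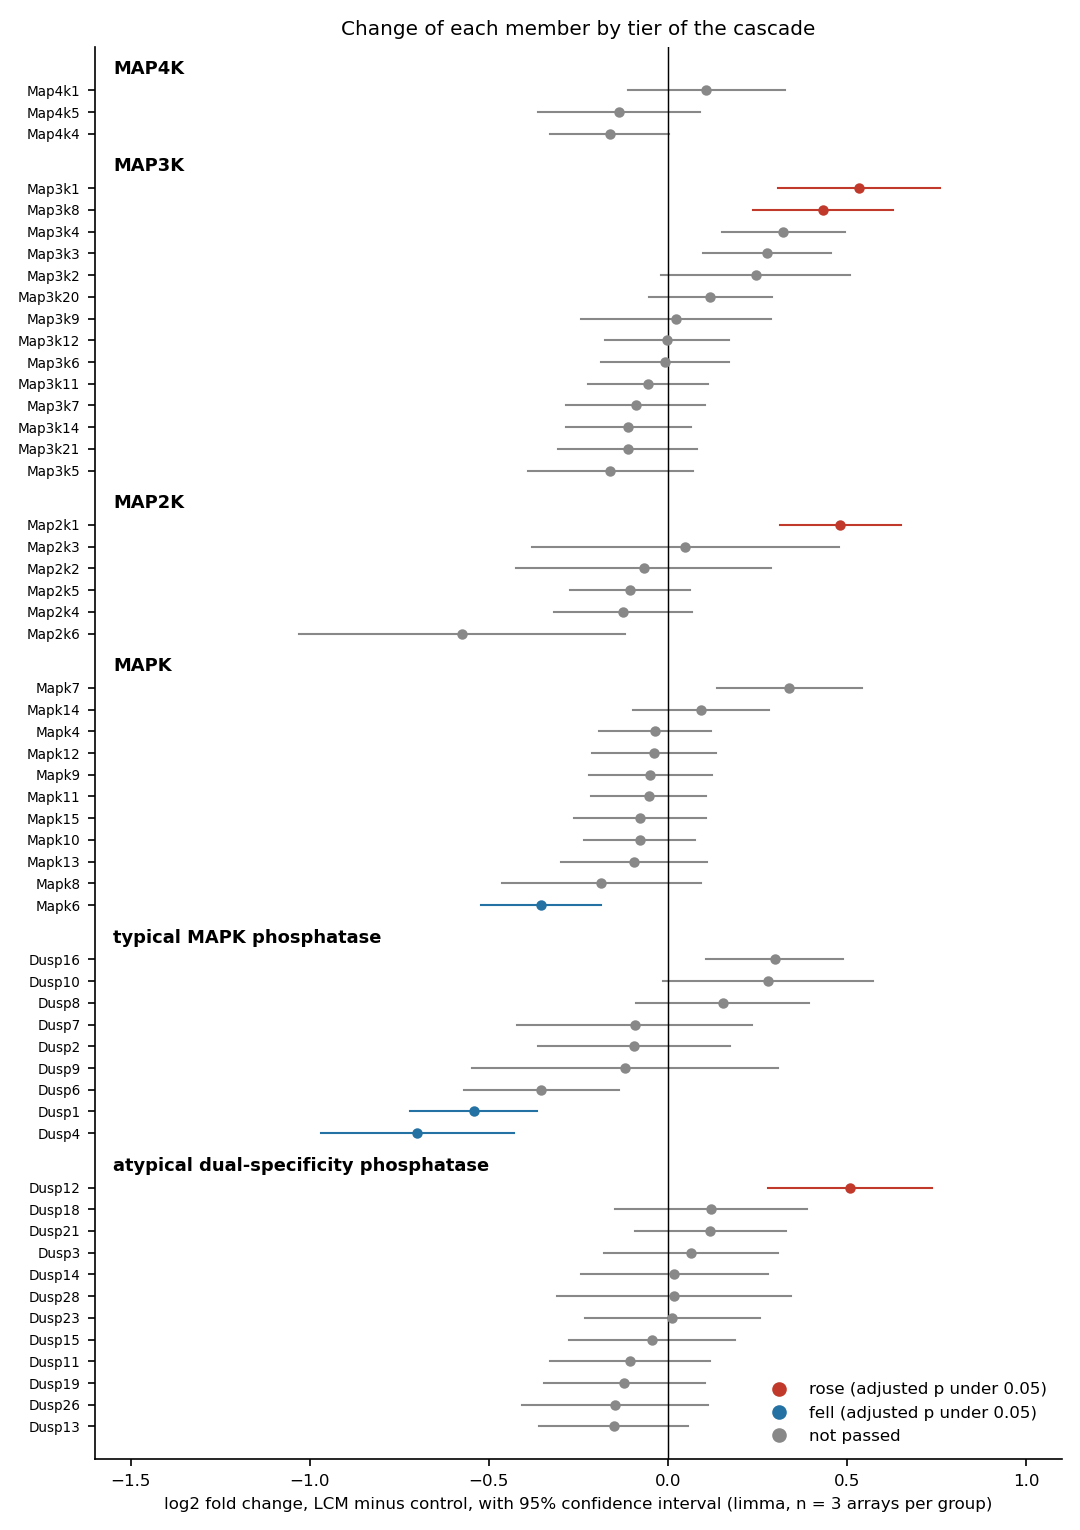
The log2 fold change (LCM minus control, x axis) of each of the 55 members is drawn as a point with its 95% confidence interval from limma, grouped by tier. Map2k1, Map3k1, Map3k8 and Dusp12 lie to the right of 0 and Dusp1, Dusp4 and Mapk6 to the left with adjusted p under 0.05, and most of the 48 grey members have intervals that include 0.

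Arrays differed in spread. Control replicate 2 lay farthest from the other controls in 32 of 55 members, and its correlations with the other control arrays over all transcripts were 0.980 and 0.984, against 0.987 between those arrays. The median SD of a member was 0.05 among LCM arrays and 0.12 among control arrays on the log2 scale. Without control replicate 2, 7 members rose and 4 fell (8.96% of all genes passed), whereas without LCM replicates 1, 2 or 3 no member passed (0.666%, 0.532% and 0.404% of all genes), without control replicate 1 only Dusp1 did, and without control replicate 3 Dusp12, Map2k1 and Dusp1 did. With 3 arrays in each group, the smallest two-sided p that an exact permutation of the labels allows is 0.1. Among cell type markers, 2 of 9 adipocyte genes fell (22.2%, against 1.97% of all genes). At an unadjusted p under 0.05 from limma, 8 of the 9 were lower (88.9%, against 10.3% of all genes), and 1 had a log2 fold change above 0. The median log2 fold change of the 9 was -0.43. The summed linear level of the 9 was 33700 to 36000 in LCM arrays and 44300 to 45800 in control arrays. None of 7 preadipocyte genes passed (sums of 16100 to 17800 in LCM and 14400 to 17900 in control). At an unadjusted p under 0.05 from limma, 2 of these 7, Pdgfra and Cd34, were lower (28.6%, against 10.3% of all genes). The median log2 fold change of the 7 was -0.02. None of 6 B-lymphoblast genes passed (sums of 293 to 341 in LCM and 280 to 354 in control). Of 5 macrophage genes Cd68 rose (20%, against 2.29% of all genes). The 4 others did not pass, with log2 fold changes from -0.08 to 0.07, and the median of the 5 was -0.01. The sums of all 5, Cd68 included, were 480 to 507 in LCM and 408 to 467 in control. The part of these marker changes in the results below was not tested, and in such bulk samples fewer cells of a type and less RNA per cell cannot be told apart.

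Before the values, the start regions of 3 members that passed are shown, because they share a short element, the core TGACGT of the cyclic AMP response element to which factors of the CREB and ATF family bind. RefSeq windows of 300 bases (250 before to 50 after the start, build GRCm38.p6) were found for 44 of the 55 members and for 5 of the 7 that passed. Lower-case letters are the window from 5′ to 3′ on the strand of the gene, and capitals mark any of 4 motifs on either strand. These were the core TGACGT, the E-box CACGTG, the AP-1 element spelled TGANTCA, and the amino acid response element that ATF4 binds, spelled TGATGNAA. The windows of Dusp1 (chr17:26508423-26508722, minus strand), Map2k1 (chr9:64253556-64253855, minus strand) and one start of Mapk6 (chr9:75409967-75410266, minus strand) are these.
Dusp1: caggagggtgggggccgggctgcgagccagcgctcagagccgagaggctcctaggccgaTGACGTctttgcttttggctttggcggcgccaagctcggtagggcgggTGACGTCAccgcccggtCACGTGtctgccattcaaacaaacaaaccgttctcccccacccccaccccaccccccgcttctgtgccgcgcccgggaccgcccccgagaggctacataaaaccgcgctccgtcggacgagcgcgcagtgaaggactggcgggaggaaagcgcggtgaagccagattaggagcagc
Map2k1: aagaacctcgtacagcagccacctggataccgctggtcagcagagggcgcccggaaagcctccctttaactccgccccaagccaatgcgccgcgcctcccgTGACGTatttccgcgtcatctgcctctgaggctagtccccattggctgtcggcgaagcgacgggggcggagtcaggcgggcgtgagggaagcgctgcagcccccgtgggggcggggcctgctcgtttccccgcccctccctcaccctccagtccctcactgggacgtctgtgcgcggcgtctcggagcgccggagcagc
Mapk6: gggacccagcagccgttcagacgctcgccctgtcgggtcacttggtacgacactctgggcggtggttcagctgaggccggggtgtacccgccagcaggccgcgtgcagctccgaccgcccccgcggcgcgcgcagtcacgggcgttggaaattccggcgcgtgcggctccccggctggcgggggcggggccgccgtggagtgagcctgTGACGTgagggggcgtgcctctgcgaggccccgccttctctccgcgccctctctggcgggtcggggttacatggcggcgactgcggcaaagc
Dusp1, which fell, held TGACGT at 3 places, beginning 191, 143 and 141 bases before the start. The last 2 overlap as the full palindrome TGACGTCA, which reads TGACGT on each strand, and a CACGTG began 126 bases before the start. Map2k1, which rose, held TGACGT at 149 bases before the start, and Mapk6, which fell, at 42 bases. The second start of Mapk6 and the windows of Map3k1 and Dusp12 held none of the 4 marked motifs. Over 32851 windows of this length in the table, 7.51% held the core TGACGT on either strand and 1.79% its palindrome TGACGTCA. The E-box was in 7.15%, the AP-1 element in 7.81% and the ATF4 element in 3.97%. Of 58 windows of members, 7 held TGACGT (12.1%) and 3 held TGACGTCA (5.17%). The E-box was in 8.62% of the member windows, the AP-1 element in 3.45% and the ATF4 element in 1.72%. These shares were not tested. G and C made up 67.0% of the window shown for Dusp1, 69.0% for Map2k1 and 73.7% for Mapk6, against a median of 52.7% over all windows. The element thus occurs in members of opposite direction, and a match of letters is no evidence of a bound site.

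At the top of the cascade, no MAP4K passed. Map4k4 (HGK), a kinase upstream of JNK, came nearest, at 10.18, 10.16 and 10.27 in LCM arrays, against 10.41, 10.33 and 10.36 in control arrays, on the log2 expression scale. These values did not overlap, but the log2 fold change of -0.16 had an adjusted p of 0.263 from limma. Map4k5 and Map4k1 had log2 fold changes of -0.14 and 0.11 with overlapping values.

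Among the 14 MAP3K, 2 rose, none fell and the median log2 fold change was 0.01, a value near 0 that lay between -0.019 without control replicate 2 and 0.042 without control replicate 1. Map3k1 encodes MEKK1, which activates the JNK arm through MKK4 and is also a ubiquitin ligase. On the log2 expression scale it was at 10.17, 10.23 and 10.11 in LCM arrays, against 9.52, 9.82 and 9.58 in control arrays. Every LCM array lay above every control array, and control replicate 2 was the highest control. Map3k1 rose 1.45-fold (limma adjusted p = 0.0290, with 0.53 ± 0.10 as its log2 fold change and standard error). It passed in 1 of the 6 subsets that leave out an array, that without control replicate 2 (adjusted p = 0.00745), and reached 0.141 in the others.
Map3k8 encodes TPL2, the kinase that links Toll-like and tumour necrosis factor receptors to MEK1. The arrays read 8.44, 8.46 and 8.54 in LCM arrays and 8.09, 8.13 and 7.92 in control arrays, without overlap. Map3k8 rose 1.35-fold (limma adjusted p = 0.0350, with 0.43 ± 0.08 as its log2 fold change and standard error), and of the 6 subsets it passed only without control replicate 2. With each array centred on its median its adjusted p was 0.0528 from limma.
The next 3 MAP3K by p were also MEKK genes, and none passed. Map3k4, a MEKK that GADD45 proteins bind and activate, measured 9.41, 9.47 and 9.45 in LCM arrays, against 9.15, 9.18 and 9.03 in control arrays. The groups were apart, yet the log2 fold change of 0.32 missed the threshold (adjusted p = 0.0582 from limma) and passed without control replicate 2 (0.0296). Map3k3 (MEKK3), which together with MEKK2 activates MEK5, measured 10.35, 10.45 and 10.53 in LCM arrays and 10.19, 10.13 and 10.18 in control arrays (limma adjusted p = 0.0978 for a log2 fold change of 0.28). For Map3k2 (MEKK2), control replicate 2 at 9.77 lay among the LCM values of 9.80, 9.74 and 9.79, while the other controls were at 9.46 and 9.36 (limma adjusted p = 0.288 for a log2 fold change of 0.24). Map3k2 had an adjusted p of 0.0266 without that array.
The remaining MAP3K did not pass, with log2 fold changes from -0.16 for Map3k5 to 0.12 for Map3k20. Map3k5 encodes ASK1, a kinase that reduced thioredoxin holds inactive. Its level was 8.02 ± 0.02 in LCM and 8.18 ± 0.17 in control (SD, n = 3 each), with the highest LCM array just under the lowest control. Map3k20 encodes ZAK, which senses stalled ribosomes, and its values overlapped. Map3k7, which encodes TAK1, the kinase of the interleukin-1 pathway, had a log2 fold change of -0.09 with a 95% interval of -0.28 to 0.10. Map3k14 (NIK), which acts in the NF-kB pathway, and Map3k21 had -0.11 each. The mixed-lineage kinases Map3k9, Map3k11 and Map3k12 lay between -0.06 and 0.02, and Map3k6 (ASK2) at -0.01.

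Among the 6 MAP2K, Map2k1 rose and none fell, with a median log2 fold change of -0.09, which was -0.14 without control replicate 2 and -0.030 without control replicate 3. Map2k1 encodes MEK1, which phosphorylates the ERK kinases. On the log2 expression scale it was at 11.18, 11.22 and 11.10 in LCM arrays, against 10.69, 10.63 and 10.74 in control arrays. The groups were well apart and tight, at 11.17 ± 0.06 in LCM and 10.69 ± 0.05 in control (SD, n = 3 each). Map2k1 rose 1.40-fold (log2 fold change 0.48, 95% interval 0.31 to 0.65, adjusted p = 0.0165 from limma). It passed without control replicate 2 and without control replicate 3 and reached an adjusted p of 0.101 in the other subsets.
Its partner Map2k2, which encodes MEK2 and acts on the same ERK kinases, measured 8.69, 8.76 and 8.96 in LCM arrays and 9.03, 8.54 and 9.05 in control arrays. These values overlapped, with control replicate 2 the lowest of all. The log2 fold change of Map2k2 was -0.07 with a 95% interval of -0.42 to 0.29, and the difference between the changes of the MEK1 and MEK2 genes was not tested.
Map2k6, which encodes MKK6, an activator of p38, had the lowest log2 fold change of any member that did not pass. It measured 7.95, 7.74 and 7.50 in LCM arrays, against 8.32, 8.66 and 7.93 in control arrays, with LCM replicate 1 just above control replicate 3. Its replicates were widely spread (SD 0.23 in LCM and 0.37 in control), and the log2 fold change of -0.58 had an adjusted p of 0.160 from limma. Map2k3, which encodes the other p38 activator MKK3, measured 9.34, 9.46 and 9.53 in LCM arrays and 9.62, 8.94 and 9.62 in control arrays. Its log2 fold change was 0.05 and turned to -0.18 without control replicate 2. Map2k4 (MKK4), which activates JNK and p38, and Map2k5 (MEK5), which activates ERK5, had log2 fold changes of -0.13 and -0.11 with overlapping values.

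Among the 11 MAPK, Mapk6 fell, none rose and the median log2 fold change was -0.05. Mapk6 encodes ERK3, an unstable atypical MAPK that binds and activates the kinase MK5. Its log2 expression was 11.78, 11.86 and 11.82 in LCM arrays, against 12.21, 12.10 and 12.20 in control arrays, without overlap. Mapk6 fell by 0.35 ± 0.07 on the log2 scale (estimate and standard error, limma adjusted p = 0.0401). It passed only without control replicate 2 among the 6 subsets and had an adjusted p of up to 0.165 in the rest. The related Mapk4 (ERK4) had a log2 fold change of -0.04 with overlapping values, and Mapk15, the remaining atypical kinase, -0.08.
Mapk7 encodes ERK5, the kinase at the end of the MEKK2, MEKK3 and MEK5 arm. It measured 9.50, 9.54 and 9.67 in LCM arrays, against 9.24, 9.12 and 9.33 in control arrays. All LCM values lay above all control values, and the log2 fold change of 0.34 did not pass (adjusted p = 0.0815 from limma) in any of the 6 subsets either. Map3k1, Map2k1 and Mapk7 are among the genes that the study listed under the oxidative stress response of the transcription factor Nrf2. That list came from these same arrays, so the direction of these 3 genes is not independent evidence. Mapk3, which encodes ERK1 and is on that list too, was not analysed here, and the counts of the MAPK tier leave it out.
The JNK and p38 kinases showed no change that passed. Mapk8, Mapk9 and Mapk10, which encode JNK1, JNK2 and JNK3, had log2 fold changes of -0.19, -0.05 and -0.08. Mapk8 measured 9.14, 9.14 and 8.96 in LCM arrays and 9.17, 9.51 and 9.12 in control arrays, where the high value was that of control replicate 2. Mapk14, which encodes p38 alpha, the p38 kinase found most widely across tissues, had a log2 fold change of 0.09 with a 95% interval of -0.10 to 0.28. Mapk11, Mapk12 and Mapk13, the genes of the other p38 kinases, lay between -0.10 and -0.04. The 95% interval of the log2 fold change of Mapk8 was -0.46 to 0.09. Mapk10 was dim, at 4.87 ± 0.03 in LCM and 4.95 ± 0.03 in control (log2 expression, SD, n = 3 each). These arrays therefore do not show that the JNK and p38 genes were unchanged.

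**Figure D2:**
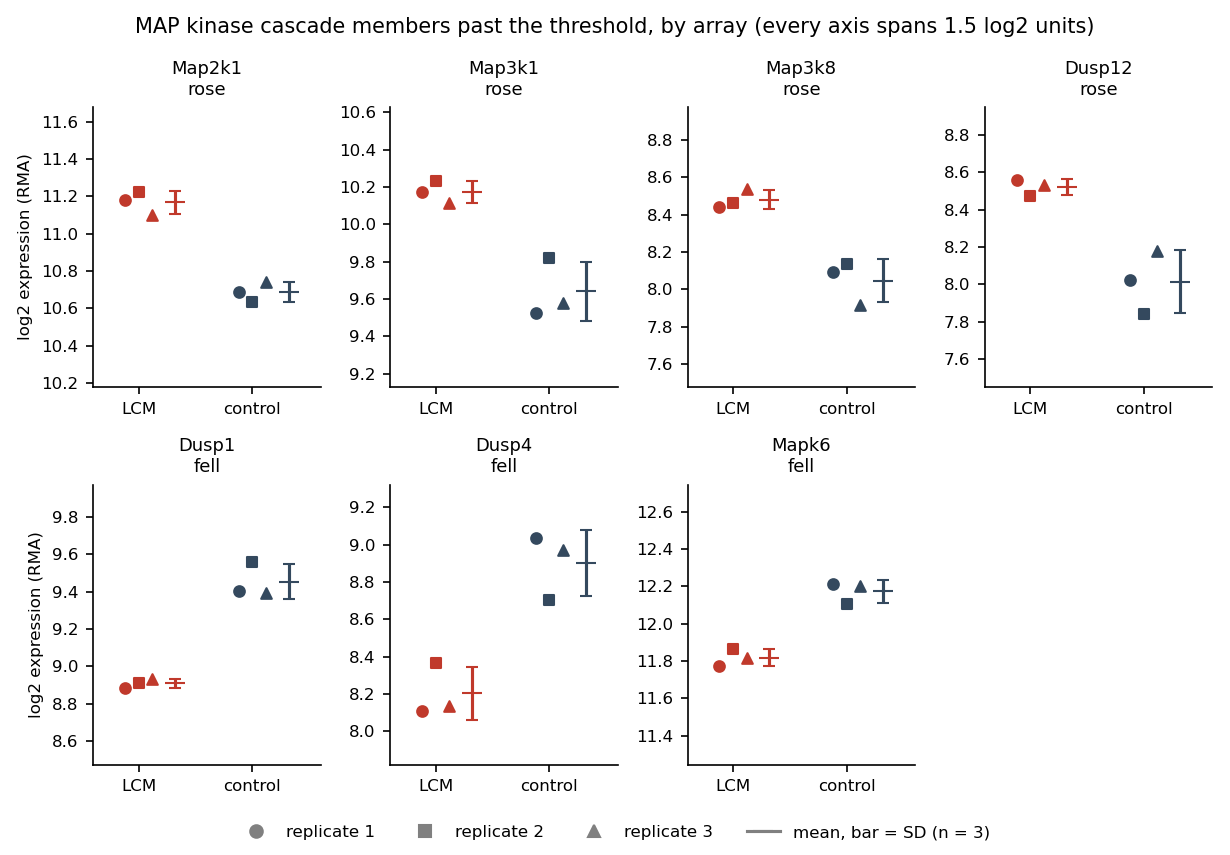
Log2 expression (y axis, RMA) of the 7 members that passed is drawn for the LCM and the control arrays, with symbols for replicates and bars for the mean and SD (n = 3). In every panel the LCM values lie wholly above (Map2k1, Map3k1, Map3k8, Dusp12) or wholly below (Dusp1, Dusp4, Mapk6) the control values.

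Among the 9 typical MAPK phosphatases, 2 fell, none rose and the median log2 fold change was -0.10. That median moved to -0.026 without control replicate 1, -0.045 without LCM replicate 1, -0.056 without LCM replicate 2, -0.15 without LCM replicate 3 and -0.16 without control replicate 3. They fall into textbook classes by place and substrate, and the classes differed in the sign of their values. The nuclear, inducible enzymes Dusp1, Dusp2 and Dusp4 had log2 fold changes below 0 (median -0.54). Of these 3, 2 fell (66.7%, against 1.97% of all genes). The cytoplasmic enzymes that act on ERK, Dusp6, Dusp7 and Dusp9, were also below 0 (median -0.12, none passed). The enzymes that act on JNK and p38, Dusp8, Dusp10 and Dusp16, were above 0 (median 0.28, none passed). The signs of Dusp7 and Dusp9 turned in 1 subset each, without control replicate 2 and without control replicate 3. The classes hold 3 analysed genes each, with Dusp5 not analysed here, and their difference was not tested.
Dusp1 encodes MKP-1, the first MAPK phosphatase described, an immediate early gene whose product dephosphorylates p38, JNK and ERK in the nucleus. Its log2 expression was 8.89, 8.91 and 8.93 in LCM arrays, against 9.40, 9.56 and 9.39 in control arrays. The LCM cultures agreed closely, at 8.91 ± 0.02, while control cultures were at 9.45 ± 0.09 (SD, n = 3 each). Dusp1 fell by 0.54 on the log2 scale (95% interval -0.72 to -0.36, adjusted p = 0.0132 from limma), the smallest adjusted p of the 55 members. It passed without each of the control replicates and missed the threshold without each LCM replicate, with an adjusted p of at most 0.0778.
Dusp4 encodes MKP-2, a nuclear phosphatase of ERK and JNK. The arrays read 8.11, 8.36 and 8.14 in LCM arrays, against 9.03, 8.70 and 8.97 in control arrays. Replicate 2 was the LCM array nearest to control and also the control array nearest to LCM. Dusp4 fell by 0.70 ± 0.12 on the log2 scale (estimate and standard error, limma adjusted p = 0.0216), the largest estimate in either direction among the members. It passed in 1 of the 6 subsets, that without control replicate 2, and had an adjusted p of up to 0.111 in the rest. Dusp2, the T and B lymphocyte phosphatase PAC1 of the same class, measured 6.52, 6.54 and 6.81 in LCM arrays and 6.89, 6.66 and 6.60 in control arrays, which overlapped.
Dusp6 encodes MKP-3, a cytoplasmic phosphatase specific for ERK whose gene is itself switched on by ERK signalling. It measured 7.15, 7.09 and 7.09 in LCM arrays, against 7.64, 7.37 and 7.37 in control arrays. The groups did not overlap, and the log2 fold change of -0.35 did not pass (adjusted p = 0.0859 from limma), though it did without control replicate 2 (0.0485). Dusp7 and Dusp9 had log2 fold changes of -0.09 and -0.12 within a wide spread of the controls, whose SD was 0.28 for Dusp7 and 0.37 for Dusp9.
Dusp16 encodes MKP-7, which binds JNK and p38. It measured 8.62, 8.66 and 8.72 in LCM arrays, against 8.29, 8.50 and 8.32 in control arrays. The values were apart by 0.30 on average (limma adjusted p = 0.0970, and 0.0240 without control replicate 2). Dusp10, which encodes MKP-5, was at 9.31 ± 0.13 in LCM and 9.03 ± 0.22 in control (SD, n = 3 each). Its limma adjusted p was 0.275 for a log2 fold change of 0.28. Control replicate 2 was the control that overlapped with LCM. Dusp8 had a log2 fold change of 0.15 with overlapping values.

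**Figure D3:**
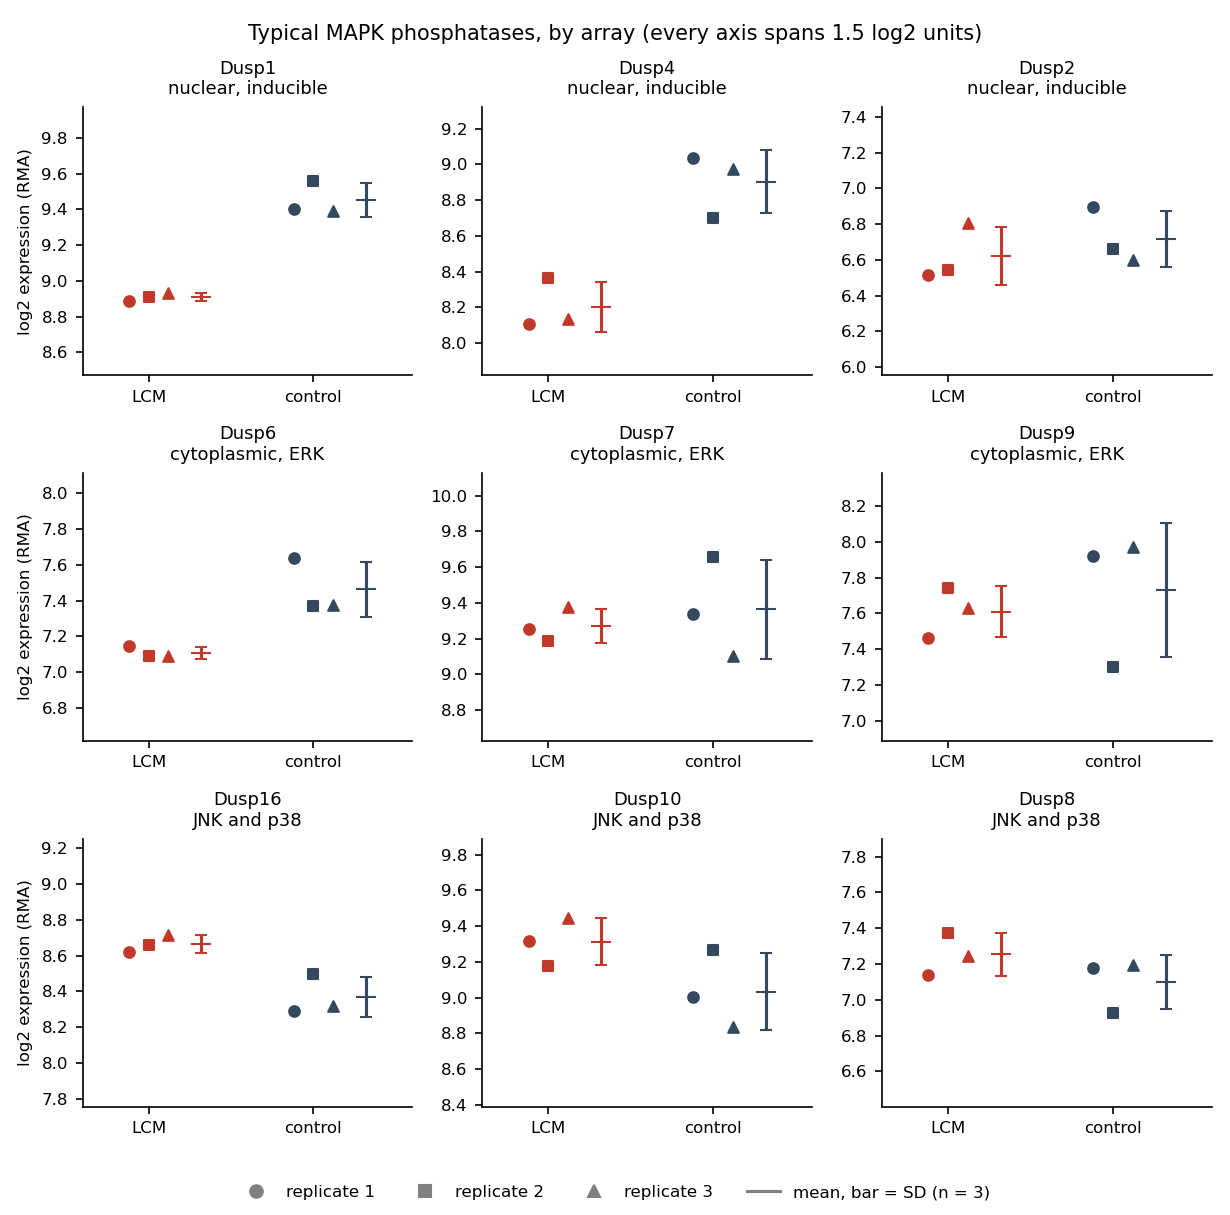
Log2 expression (y axis, RMA) of the 9 typical MAPK phosphatases is drawn for LCM and control arrays, a row for each class, with symbols for replicates and bars for the mean and SD (n = 3). Dusp1, Dusp4 and Dusp6 are lower in all LCM arrays than in all control arrays, Dusp16 is higher, and the other 5 overlap.

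Among the 12 atypical dual-specificity phosphatases, small enzymes many of which do not act mainly on MAP kinases, Dusp12 rose, none fell and the median log2 fold change was 0.01, between -0.017 without LCM replicate 3 and 0.033 without control replicate 3. Dusp12 is the counterpart of yeast Yvh1, a zinc-binding phosphatase that yeast needs to assemble the large ribosomal subunit. Its log2 expression was 8.56, 8.47 and 8.53 in LCM arrays, against 8.02, 7.84 and 8.18 in control arrays. The LCM values were close together and all above the controls. Dusp12 rose 1.42-fold (limma adjusted p = 0.0350, with 0.51 ± 0.10 as its log2 fold change and standard error), passed without control replicate 2 and without control replicate 3, and had an adjusted p of 0.0587 with each array centred on its median.
The 11 other atypical enzymes lay between -0.15 and 0.12 on the log2 fold change scale, and the values of all of them overlapped between LCM and control. Dusp13 and Dusp26 were at -0.15 each. Dusp11, which removes phosphates from the 5′ end of RNA, was at -0.11, and Dusp19 and Dusp18 were at -0.12 and 0.12. Dusp3 (VHR), which can dephosphorylate ERK and JNK, was at 0.07. Dusp14, Dusp23 and Dusp28 were within 0.02 of 0, and Dusp15 was at -0.05. Dusp21 was at 0.12 and was dim on every array, at 4.48 to 4.60 in LCM and 4.28 to 4.55 in control on the log2 expression scale.

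Other genes of the pathway were taken from 6 lists of 68 measured genes that are not members. Of these, 4 rose and 1 fell, where 2.29% of all genes rose and 1.97% fell. The gene that fell was Spry4, which encodes a Sprouty protein, an inhibitor of the path between growth factor receptors and ERK that ERK signalling itself induces. Spry4 measured 8.73, 8.76 and 8.66 in LCM arrays, against 9.52, 9.70 and 9.75 in control arrays. It fell by 0.94 ± 0.08 on the log2 scale (estimate and standard error, limma adjusted p = 0.00493), more than any member, and passed in all 6 subsets, with an adjusted p of at most 0.0386. The 16 other inhibitors and phosphatases did not pass (log2 fold changes -0.19 to 0.16), among them Spry2 at -0.19, Spry1 at -0.14, Spred1 at -0.10 and Spred2 at -0.19.
The genes that rose encode scaffolds and adaptors. Of 13 scaffolds and adaptors, Tab2, which brings TAK1 to its activators, rose 1.34-fold, Traf6, a ubiquitin ligase of the Toll-like receptor path, 1.26-fold and Mapk8ip3, the JNK scaffold JIP3, 1.31-fold (adjusted p = 0.0261, 0.0433 and 0.0471 from limma). These 3 genes were 23.1% of that list, beside 2.29% that rose over all genes. Mapk8ip1, the JNK scaffold JIP1, was at -0.34 on the log2 fold change scale (limma adjusted p = 0.0734). Of 9 genes of the Ras to Raf step, Ksr1, a scaffold that holds Raf, MEK and ERK together, rose 1.31-fold (adjusted p = 0.0390 from limma). Ksr1, Tab2, Traf6 and Mapk8ip3 each passed in 1 of the 6 subsets, that without control replicate 2, with adjusted p of up to 0.182, 0.138, 0.200 and 0.192 in the rest.
None of 8 effector kinases passed (median log2 fold change -0.08). At an unadjusted p under 0.05 from limma, 1 was higher (12.5%, against 9.25% of all genes). Mknk1 and Mknk2, kinases of the translation factor eIF4E, had log2 fold changes of 0.29 and -0.30. None of 14 genes listed as ERK output passed either (median -0.12). Of the 14, 3 had a log2 fold change above 0 (21.4%, against 42.5% of all genes). At an unadjusted p under 0.05 from limma, 2 of the 14 were higher (14.3%, against 9.25% of all genes) and 1 was lower (7.14%, against 10.3%). Spry4, which fell, and Dusp6, which did not pass, are described above and are not in that list. Ier3 and Ier2 were higher in all LCM arrays, with log2 fold changes of 0.63 and 0.32 (adjusted p = 0.103 and 0.105 from limma). Fosl1, Ccnd1 and Egr1 had log2 fold changes of -0.19, -0.29 and -0.27, and Fos, Etv4, Etv5 and Phlda1 lay between -0.12 and 0.06. None of 7 further kinases of the MAP3K and MAP4K type passed.

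How far each call rested on single arrays or on the processing is shown for the 12 members with an unadjusted p under 0.01. Under the 12 other ways of processing or testing, Dusp1 passed in 10, Map3k1 and Map2k1 in 9 each, Dusp4 and Mapk6 in 8 each, Map3k8 in 7 and Dusp12 in 6. None of the 7 changed sign in any setting that was run.

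**Figure D4:**
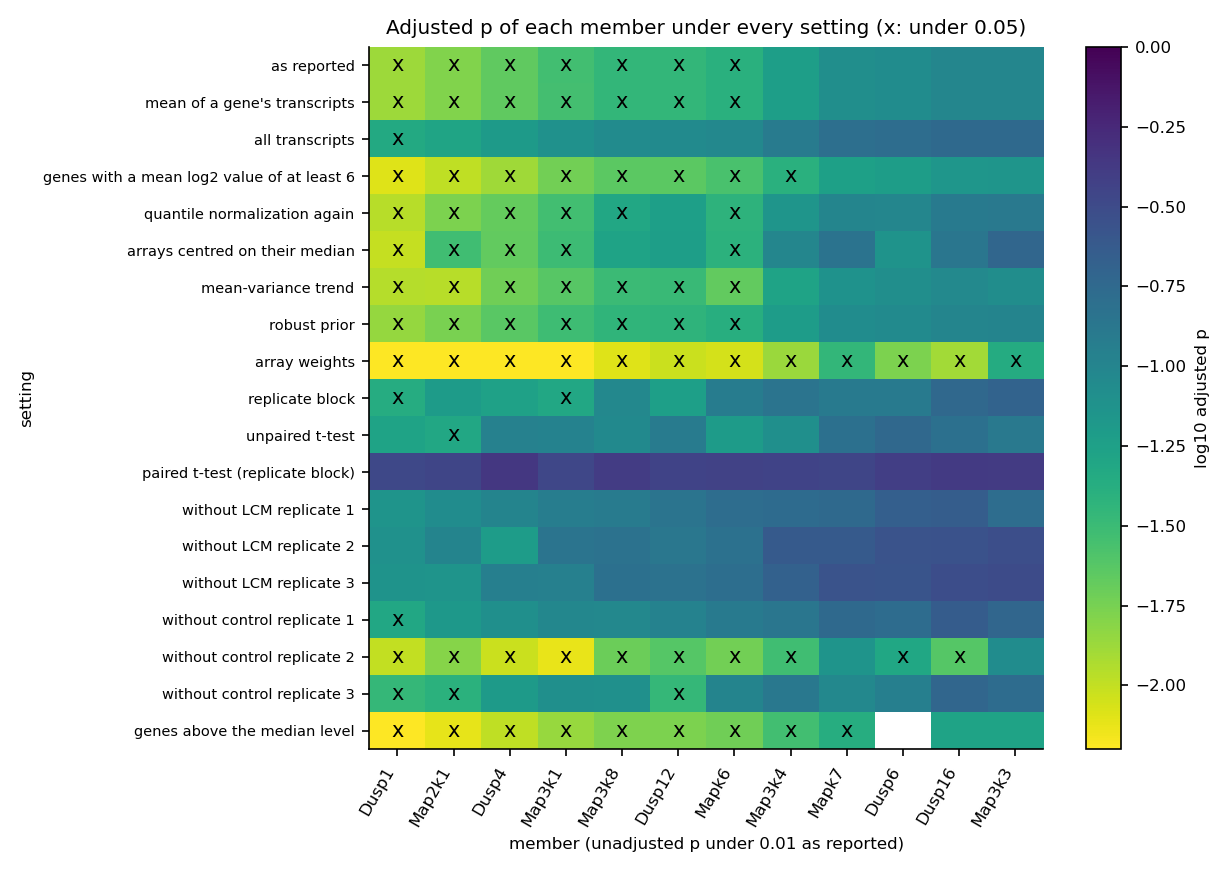
The colour gives the log10 adjusted p of each of 12 members (columns, by unadjusted p) under each setting (rows), and a cross marks an adjusted p under 0.05. All 7 members that passed also do so without control replicate 2, and none does without an LCM array. Dusp6 is blank where it was below the median level and not tested.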

How the data were processed

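RNA of 6 cultures of 3T3-L1 adipocytes was measured on Affymetrix GeneChip Mouse Gene ST arrays. The authors processed the arrays with RMA and deposited log2 values, a column per array with no pooling. For RMA no version or settings, and for the arrays no genome build, were stated, so array features carry no coordinates here. Of 23332 transcripts, 14996 had 1 gene symbol in the annotation of the platform, 1019 several and 7317 none listed. Where a gene had several transcripts the brightest on average was used (among members, Mapk10 alone), which gave 14860 genes.

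LCM minus control was fitted with limma 3.58.1 (lmFit, eBayes, two-sided) in R 4.3.3 over all genes. A gene passed at a Benjamini-Hochberg adjusted p under 0.05. The labels call the cultures biological replicates. The members, classes and lists were chosen with earlier results of these data known, so no list was tested as a set. Named were the members that passed, up to 4 next by p in each tier, their partner isoforms, members that the study lists, and up to 3 genes that passed in each further list, and other names were chosen after their values were seen. Alternatives were other summaries, filters, scalings, priors, array weights, a replicate block, unpaired and paired t-tests (the study's statistics section gives the paired form for groups in general) and each array left out. For genes outside the families the alternatives were chosen after seeing the data. Simulated data with known changes were used to check the fit. Promoter windows came from RefSeq (GRCm38.p6). Python 3.11.15, pandas 2.3.3 and matplotlib 3.10.9 were used for sequences and figures.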

Additional observations from a re-analysis of the deposited data

How the results depend on the processing

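The number of members that rose was 4, and it was 0 over all transcripts, 2 with arrays centred on their median, 9 with array weights, 1 with the replicate block, 1 with the unpaired t-test and 0 with the paired t-test. The number that fell was 3, and it was 1 over all transcripts, 1 with the replicate block and 0 with either t-test. Leaving out an array gave 0 to 7 that rose and 0 to 4 that fell. For genes outside the families, 4 rose, with 0 over all transcripts, 2 with quantile normalization again, 1 with centring, 0 with the replicate block, 1 with the unpaired t-test and 0 with the paired t-test. Of these genes 1 fell, with 3 among genes above the median level, 4 with array weights and 0 with the paired t-test. Leaving out an array gave 0 to 4 that rose and 1 to 3 that fell. Over all transcripts more features were tested, and the t-tests do not share the spread between genes. Array medians over all transcripts were 7.665 to 7.68 in LCM arrays and 7.595 to 7.658 in control arrays on the log2 scale. Centring removes that offset and so lowered every log2 fold change by the same amount. The cause of the other shifts was not tested. Calls over all genes numbered 341 that rose and 292 that fell, and 232 and 408 with centring, 889 and 975 with array weights, 173 and 151 with the replicate block, 173 and 102 over all transcripts, 104 and 66 with the unpaired t-test and 0 with the paired t-test.

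With arrays centred on their median, the median log2 fold change of a tier was -0.19 for MAP4K, -0.040 for MAP3K, -0.10 for MAPK and -0.036 for the atypical phosphatases, and with quantile normalization again it was -0.080 for MAPK. Without each array in turn it lay between -0.17 and -0.045 for MAP4K, -0.019 and 0.042 for MAP3K, -0.14 and -0.030 for MAP2K, -0.064 and -0.047 for MAPK, -0.16 and -0.026 for the typical and -0.017 and 0.033 for the atypical phosphatases. Members near 0 changed sign. With centring Map3k9 was at -0.028, Map2k3 at -0.0011, Dusp14 at -0.033, Dusp23 at -0.038 and Dusp28 at -0.034. With quantile normalization again Dusp14 was at -0.0049 and Dusp23 at -0.0039, and with array weights Map2k3 was at -0.13 and Dusp28 at -0.12. Over the 6 subsets without an array, log2 fold changes lay between -0.047 and 0.039 for Map3k6, -0.089 and 0.094 for Map3k9, -0.049 and 0.024 for Map3k12, -0.24 and 0.020 for Map2k2, -0.18 and 0.16 for Map2k3 and -0.066 and 0.0060 for Mapk12. Among phosphatases the ranges were -0.23 to 0.051 for Dusp7, -0.34 to 0.0012 for Dusp9, -0.090 to 0.12 for Dusp14, -0.13 to 0.041 for Dusp15, -0.078 to 0.073 for Dusp23 and -0.10 to 0.11 for Dusp28. The 7 members that passed lost their call in 31 of 42 fits without an array and in 27 of 84 under the other alternatives, 58 of 126 in all.

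Both groups carry the same replicate numbers. Deviations of same-numbered LCM and control arrays correlated at -0.23, 0.06 and 0.11 over all genes, and those of differently numbered arrays at -0.279 to 0.285. With so few arrays, these values cannot decide whether cultures of the same number were paired. In the fit with the replicate block 1 member rose, Map3k1, and 1 fell, Dusp1. The number of arrays and the spread of the controls limit what can be detected.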
